A study of Mus musculus with 4 samples.

Results

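Kupffer cells with high RNA content were examined in single-cell RNA profiles of mouse liver. The cells had been enriched from the non-parenchymal fraction with magnetic beads against CD45, which marks cells of the blood lineages, and were profiled with 10x 3' chemistry. All mice were males aged 8 weeks and carried tumours grown from MC38 colorectal cancer cells; the study concerned liver metastasis promoted by surgical stress. The livers were collected when 3 weeks had passed since the tumour cells were injected. Sed 1 and Sed 2 were libraries of sedentary mice, and Ex 1 and Ex 2 were libraries of mice that exercised before the operation. The mouse strain and the exercise schedule are not given in the sources used here. The labels give each library a number and say nothing of whether it held 1 mouse or a pool, so p-values here measure the spread between libraries, which may be technical.

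The deposited matrix counts unique molecular identifiers (UMIs), each standing for 1 captured RNA molecule. A cell counted as a high-RNA Kupffer cell if it had at least 200 genes, at most 10% mitochondrial UMIs and at least 3000 UMIs. It also needed at least 4 UMIs summed over the Kupffer markers Clec4f, Vsig4, Cd5l and Timd4. Cells with any UMI of Cd79a (B cells), Cd3e (T cells), Csf3r (neutrophils) or Stab2 (sinusoidal endothelium) were left out. The rule found 516 cells among 25161 kept cells and 28525 barcodes: 96 in Sed 1, 355 in Sed 2, 50 in Ex 1 and 15 in Ex 2. Cells with exactly 4 marker UMIs, just inside the rule, numbered 1, 15, 1 and 0, and otherwise eligible cells with 3 numbered 3, 15, 7 and 3. The 4 excluded genes removed 87, 410, 82 and 34 cells that met the rest of the rule. The cells were thus chosen by their UMI total and these 8 genes, whose levels are described here and were not tested.

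Kupffer cells line the sinusoids, take up particles, dying cells and aged erythrocytes from the blood, recycle iron and present antigen. Their identity depends on signals of the niche, among them BMP, Notch and CSF1, acting through factors such as LXR alpha (Nr1h3), Id1, Id3 and Spic. Interferons act on them through overlapping sets of target genes. Type I interferon induces antiviral genes such as Isg15, Irf7 and the Ifit and Oas families, while interferon gamma induces Cxcl9, guanylate-binding proteins and, through Ciita, the MHC class II genes.

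The high-RNA Kupffer cells held 817213 UMIs in Sed 1, 2903853 in Sed 2, 392208 in Ex 1 and 98274 in Ex 2. Their median depth was 7734, 7457, 6173 and 6600 UMIs, and their median mitochondrial share 3.80%, 3.82%, 4.34% and 6.05%. No barcode sequence was shared between libraries among them, against 83 among all barcodes. Genes of other cell types were present. Across 9 marker lists, every listed gene had at least 1 UMI in some library, so no list was at 0. Summed neutrophil markers stood at 20528 CPM (UMIs per 1000000 UMIs of these cells) in Sed 1, 1820 in Sed 2, 12537 in Ex 1 and 39899 in Ex 2. In Ex 2 a single cell held 3919 of the 3921 neutrophil UMIs. Summed monocyte markers ran from 3169 to 7502 CPM and overlapped between the groups. The part of such RNA in the results below was not tested beyond the alternatives named there. The fit was therefore also made on cells with at least 10 C1q UMIs and at most 10 UMIs of S100a8 and S100a9, a choice made after the data had been seen.

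The label was checked against genes that the rule did not use. Of 26 further Kupffer identity genes, 20 stood higher in every library of the high-RNA Kupffer cells than in any library of 3 other myeloid classes, and 22 stood higher within each library. The classes were C1q macrophages, monocytes and dendritic cells, all with at least 3000 UMIs, at most 1 UMI of the Kupffer markers and none of the 4 excluded genes. C6, a terminal complement component named after its values were seen, ranged from 153 to 448 CPM in the Kupffer cells and was at most 1.02 CPM in the other classes. Marco, a scavenger receptor, ranged from 360 to 1224 CPM against at most 7.91. Slc40a1, the iron exporter ferroportin, ranged from 814 to 1455 CPM against at most 87.7. Id1, Gfra2 and Irf8 were among those that did not stand apart in every library. These levels are descriptions, since the classes were divided by Kupffer markers.

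The cells were not uniform, and marker make-up differed between libraries of the same group. Clec4f, a lectin of resident Kupffer cells, had a UMI in 94.8% of cells in Sed 1, 92.4% in Sed 2, 68.0% in Ex 1 and 100% in Ex 2. Timd4, a phosphatidylserine receptor of long-resident macrophages, was found in 9.38%, 57.7%, 20.0% and 60.0%. One library of each group was thus low in Timd4 and 1 was high. With each cell thinned to 3000 UMIs, cells with a Timd4 UMI carried more of the hemoglobin receptor gene Cd163 than cells without one. Cd163 stood at 1375 against 136 CPM in Sed 1, 794 against 184 in Sed 2, 400 against 50.0 in Ex 1 and 583 against 95.2 in Ex 2. The MHC class II gene H2-Aa ran the other way, at 83.3 against 136 CPM, 444 against 1526, 1200 against 3250 and 1042 against 2952. H2-Aa was thus lower in cells with Timd4 in each library, though in Sed 1 only 8 cells had a Timd4 UMI. Even before thinning only 10 cells in Ex 1 and 9 in Ex 2 had one. In Ex 2 a single cell without Timd4 held 108 of the 216 H2-Aa UMIs before thinning. A smaller set had Ly6c2, a gene of inflammatory monocytes: 13, 41, 6 and 2 cells at that depth. These cells were lower in C1qa, at 1846 against 6325 CPM in Sed 1 and 2406 against 7011 in Sed 2, and 1278 against 5394 in Ex 1 and 333 against 4462 in Ex 2.

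High-RNA Kupffer cells made up a smaller share of the kept cells in the exercised libraries. The share was 1.32% in Sed 1 (95% exact Clopper-Pearson interval 1.07% to 1.61%), 4.67% in Sed 2 (4.21% to 5.17%), 0.826% in Ex 1 (0.613% to 1.09%) and 0.354% in Ex 2 (0.198% to 0.583%). The intervals cover counting error only. Both exercised libraries lay below both sedentary ones, while Sed 1 was closer to Ex 1 than to Sed 2. The mean was 3.00% ± 2.37 (SD, n = 2) in Sed and 0.590% ± 0.334 (SD, n = 2) in Ex, a difference of -2.41 percentage points. The exact two-sided permutation test gave p = 0.33, the smallest value that 2 against 2 libraries allow, so the design could not pass a threshold of 0.05. Without a UMI minimum, a setting added after the data had been seen, the shares were 3.83%, 10.6%, 3.81% and 1.65%. Sed 1 and Ex 1 were then nearly equal. The 4 excluded genes also took a larger part of the otherwise eligible cells in Ex. They removed 87 beside 96 kept in Sed 1, 410 beside 355 in Sed 2, 82 beside 50 in Ex 1 and 34 beside 15 in Ex 2. The share without this exclusion was not tested. Whether bead enrichment or dissociation recovered these cells equally in the groups was not tested. C1q macrophages were 1.68% and 1.47% of kept cells in Sed and 4.46% and 2.38% in Ex (exact p = 0.33).

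**Figure D1:**
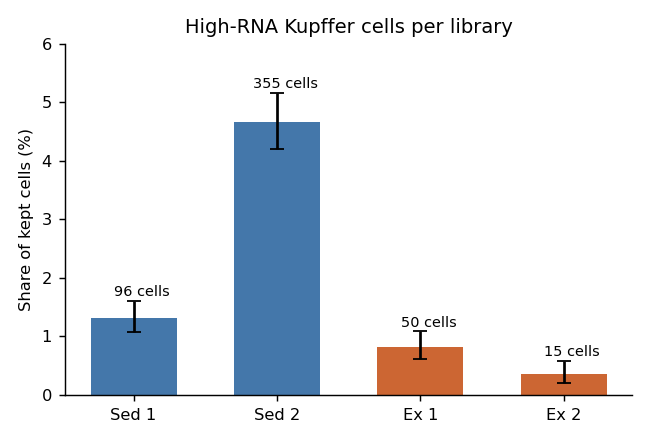
Share of kept cells that were high-RNA Kupffer cells (vertical axis, percent) in each library; bars give the share, error bars the exact 95% interval for counting error, and labels the number of cells. Sed 2 stands at 4.67% and Sed 1 at 1.32%, above Ex 1 at 0.826% and Ex 2 at 0.354%.

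Gene levels were compared between Ex and Sed on UMIs summed over the cells of each library. Cxcl9, a chemokine that draws T and NK cells bearing CXCR3, was higher in both exercised libraries. It stood at 13.5 CPM in Sed 1 and 3.79 in Sed 2, against 418 in Ex 1 and 305 in Ex 2. The groups did not overlap. The log2 change was 5.72 ± 0.53 (SE, n = 2 libraries per group; adjusted p = 0.0155, edgeR quasi-likelihood test with Benjamini-Hochberg adjustment). Cxcl9 was the single gene called of 6420 tested, or 0.0156% of them. Without adjustment 475 genes had p under 0.05, and DESeq2 called 9 genes (0.14%), 1 higher and 8 lower in Ex. These counts depended on single libraries: leaving out Sed 1 gave 31 called genes, leaving out Sed 2 gave 98, leaving out Ex 1 gave 38 and leaving out Ex 2 gave 47. Over all genes 21.7% stood higher in both Ex libraries than in both Sed libraries and 20.5% stood lower.

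The Cxcl9 UMIs sat in few cells. Ex 1 had 164 UMIs in 9 of 50 cells, of which 2 cells held 83 and 69. Ex 2 had 30 UMIs in 2 of 15 cells, 15 in each. Sed 1 and Sed 2 had 11 UMIs each, in 6 of 96 and 6 of 355 cells, with at most 5 in a cell. The cells with most Cxcl9 were of different kinds. The cell with 83 UMIs had 26072 UMIs in all, 175 of C1qa, 45 of Cd5l and none of Clec4f, and that with 69 had 6629 in all, 9 of C1qa, 1 of Clec4f and 14 of Ly6c2. In Ex 2 one of the cells had 34 Clec4f and 53 Cd5l UMIs, and the other had 6 Clec4f, 11 Ccr2 and 108 H2-Aa UMIs. At 3000 UMIs per cell, 4.17% and 0.845% of the sedentary and 12.0% and 13.3% of the exercised cells had a Cxcl9 UMI. T cells, which served as a measure of free RNA, had one in 0.189%, 1.27%, 2.92% and 1.17%, at median depths of 4962, 4712, 5647 and 5422 UMIs before thinning. With the cell holding most UMIs of each gene left out of every library, the Cxcl9 change was 5.95 (adjusted p = 0.000103, edgeR). That cell held 45.5%, 45.5%, 50.6% and 50% of the Cxcl9 UMIs in Sed 1, Sed 2, Ex 1 and Ex 2. Leaving it out takes a like part from each library, so this fit cannot show whether the change rests on few cells. The Cxcl9 change was 5.46 (0.014) in cells with Clec4f and 5.84 (0.00124) in cells with enough C1q and few S100a8 and S100a9 UMIs. Without cells that held UMIs of other cell types it was 4.37 and did not pass (0.48), and from thinned cells it was 5.07 (0.0599).

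**Figure D2:**
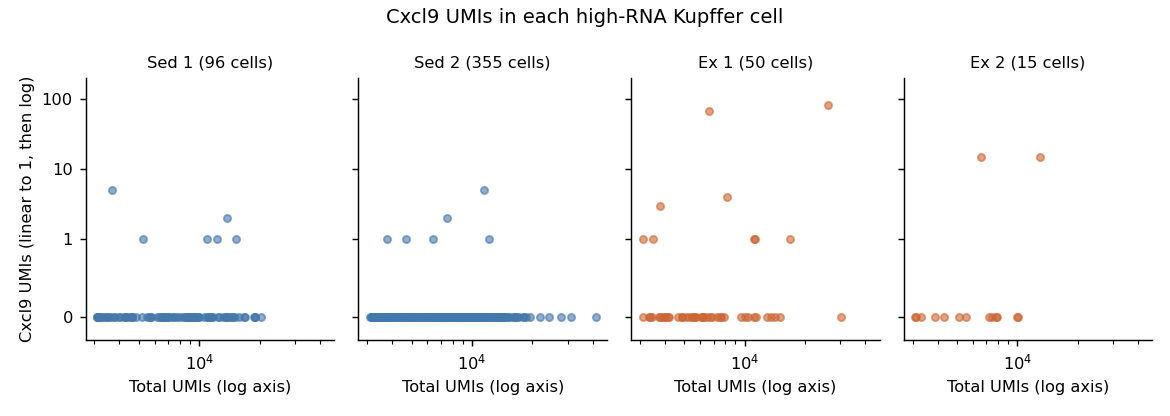
Cxcl9 UMIs in each high-RNA Kupffer cell (vertical axis, linear up to 1 and logarithmic above) against the cell's total UMIs (horizontal axis, logarithmic), with 1 panel per library and 1 point per cell. In Ex 1 the cells with 83 and 69 UMIs stand apart, and no sedentary cell exceeds 5.

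Genes induced by type I interferon were lower in the exercised libraries as a group, though none of the 41 tested passed the threshold singly in the edgeR fit. Of these 41 genes 39 had a log2 change below 0, with a median of -0.84, against a median of -0.01 over all genes. Both exercised libraries were below both sedentary ones for 35 of them and above for 1, against 20.5% and 21.7% of all genes. Of the 41, 21 were lower at an unadjusted p under 0.05 (edgeR). That level was reached by 4.25% of all genes in that direction and 3.15% in the other. Irf7, the transcription factor that amplifies the response, stood at 1098 and 875 CPM in Sed and at 311 and 366 in Ex. Its log2 change was -1.60 ± 0.27 (SE, n = 2; adjusted p = 0.259, edgeR), and 0.00472 with DESeq2. Isg15, a ubiquitin-like modifier, stood at 603 and 659 CPM in Sed and at 265 and 81.4 in Ex, a log2 change of -1.76 ± 0.41 (adjusted p = 0.427). Ifit3, an antiviral binding protein, stood at 204 and 269 CPM against 105 and 40.7. For Oasl1, a 2'-5' oligoadenylate synthetase-like protein, the levels were 201 and 180 CPM against 45.9 and 61.1. In these 4 genes the exercised libraries were each below both sedentary ones. Ifit3 had 41 and 4 UMIs in Ex 1 and Ex 2, and Oasl1 had 18 and 6, so these levels carry much counting error. Ifi27l2a and Bst2 (tetherin), picked after their values were seen, stood at 2546 and 1971 against 1015 and 997 CPM, and at 808 and 982 against 612 and 315 CPM. DESeq2 called Irf7, Isg15, Oasl1 and Ifi27l2a.

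The share of cells with a UMI was also lower. At 3000 UMIs per cell, Irf7 had a UMI in 92.7% of cells in Sed 1, 88.5% in Sed 2, 56.0% in Ex 1 and 53.3% in Ex 2. In T cells the Irf7 share was 32.6%, 28.9%, 21.4% and 13.5%, so it was lower in both exercised libraries there as well. Isg15 was found in 64.6%, 69.9%, 40.0% and 20.0% of the Kupffer cells. T cells had Isg15 in 33.1%, 45.4%, 34.7% and 17.4%, so in Ex 2 the Kupffer share was close to that of T cells. Whether T cells transcribed Irf7 and Isg15 themselves was not tested, so for these genes their shares are no measure of free RNA. The cell with most Irf7 held 21 of 122 UMIs in Ex 1 and 9 of 36 in Ex 2, and for Isg15 37 of 104 and 2 of 8. The list's median stayed below 0 in every alternative fit, from -1.48 without Ex 1 to -0.62 with thinned cells. With at most 5% mitochondrial UMIs per cell, the measure that was highest in Ex 2, it was -0.94.

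Promoters of 3 of these genes are shown because these genes were lower together in Ex and hold the letters of the interferon-stimulated response element. The 200 bases before the gene start, from RefSeq on build GRCm38.p6, are given on the strand of the gene. Capitals mark matches to GAAANNGAAA or its reverse complement TTTCNNTTTC, overlapping matches included. Isg15 lies at chr4:156199424-156200818, Bst2 at chr8:71534255-71537456, both on the minus strand, and Ifit3 at chr19:34583531-34588731 on the plus strand (GENCODE vM21). The windows were chr4:156200819-156201018, chr8:71537473-71537672 and chr19:34583329-34583528.
Isg15: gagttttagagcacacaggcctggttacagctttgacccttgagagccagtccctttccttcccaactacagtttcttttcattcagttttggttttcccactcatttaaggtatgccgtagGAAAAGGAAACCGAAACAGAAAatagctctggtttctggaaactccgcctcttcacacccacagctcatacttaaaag
Bst2: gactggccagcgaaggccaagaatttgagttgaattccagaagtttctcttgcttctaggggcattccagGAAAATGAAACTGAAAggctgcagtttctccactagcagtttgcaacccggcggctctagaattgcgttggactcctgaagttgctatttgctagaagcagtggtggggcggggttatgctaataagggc
Ifit3: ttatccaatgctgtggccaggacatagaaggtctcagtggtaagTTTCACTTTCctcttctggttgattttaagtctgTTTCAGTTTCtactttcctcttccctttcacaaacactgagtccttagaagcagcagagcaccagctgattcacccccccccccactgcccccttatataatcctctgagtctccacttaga
Isg15 held 3 overlapping matches, Bst2 2 overlapping matches and Ifit3 2 separate ones. In the 250 bases before the start, 16 of the 32 interferon-stimulated genes with a RefSeq promoter held a match, as did 11 of 15 interferon gamma-induced genes and 1 of 11 MHC class II genes. None of 19 Kupffer identity genes did. Among all 27025 genes with a promoter the share was 3.46%, and among all 32851 promoters it was 2.98%. A match is a description of the letters and not a shown binding site. Irf7 and Cxcl9 had none in this window.

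**Figure D3:**
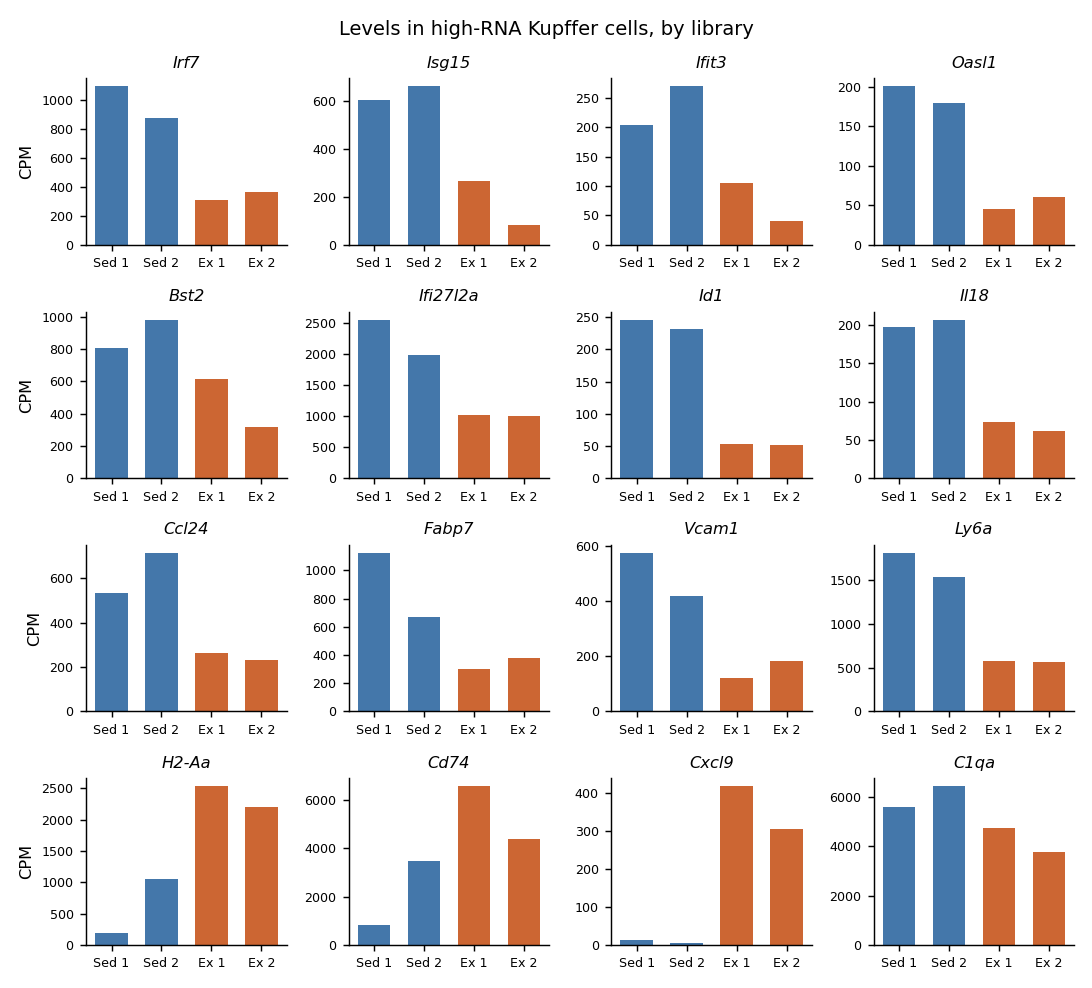
Levels of 16 genes in high-RNA Kupffer cells (vertical axes, CPM, from 0) in each library, with Sed in blue and Ex in orange; each bar is 1 library. Both exercised bars are below both sedentary bars for the interferon-stimulated genes and for Id1, Il18, Ccl24, Fabp7, Vcam1, Ly6a and C1qa, and above them for H2-Aa, Cd74 and Cxcl9.

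Several genes of the Kupffer program were lower in the exercised libraries, none past the threshold. Id1, a target of BMP signalling that supports Kupffer identity, stood at 246 and 231 CPM in Sed and at 53.5 and 50.9 in Ex. The 2 libraries of each group lay close together, but Ex 1 and Ex 2 held only 21 and 5 Id1 UMIs. Counts this small carry much counting error, so the closeness in Ex is no measure of reproducibility. The log2 change was -2.21 ± 0.31 (SE, n = 2; adjusted p = 0.203, edgeR), and the adjusted p was 0.00489 with DESeq2. Id3, a related factor, stood at 744 and 770 CPM against 416 and 722. Ccl24, a chemokine for eosinophils, stood at 535 and 714 CPM against 265 and 234, with a log2 change of -1.34 ± 0.26 (adjusted p = 0.316). In Ex 1 a single cell held 59 of the 104 Ccl24 UMIs. The fatty acid-binding protein gene Fabp7 stood at 1123 and 668 CPM against 301 and 376, and the apolipoprotein gene Apoc1 at 2029 and 2468 against 579 and 1496. Il18, the precursor of an interleukin that activates NK and T cells, stood at 197 and 207 CPM against 73.9 and 61.1. The log2 change was -1.57 ± 0.29 (adjusted p = 0.316, edgeR). The Ex levels rested on 29 and 6 UMIs. In C1q macrophages Id1, Ccl24, Fabp7, Apoc1 and Il18 were also lower in both exercised libraries, while Id3 overlapped. Id1 stood there at 70.5 and 112 CPM against 35.4 and 21.2, and Il18 at 69.6 and 80.6 against 56.2 and 51.3. The comparison of changes described below called none of these genes different from C1q macrophages. Id1 and Il18 were lower in exercised dendritic cells as well.

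Vcam1, an adhesion molecule of Kupffer cells, and Ly6a, an interferon-responsive surface protein, were named after their values had been seen. Vcam1 stood at 574 and 417 CPM in Sed against 122 and 183 in Ex, and Ly6a at 1807 and 1536 against 581 and 570. DESeq2 called both, beside Id1 and the sodium pump subunit gene Atp1b3. Of 26 identity genes outside the rule 11 were below in both exercised libraries and 3 above, against 20.5% and 21.7% of all genes. Their median log2 change was -0.39. That median was -0.030 without Ex 1, with 13 genes below and 13 above 0, -0.067 without Sed 2 and -0.65 without Ex 2. It was -0.020 with thinned cells and -0.031 without cells holding UMIs of other cell types. Fcna, a ficolin that binds microbial sugars, stood at 453 and 990 CPM against 706 and 855, Slc40a1 at 814 and 1356 against 1316 and 1455, and Spic at 56.3 and 110 against 73.9 and 163. Marco stood at 678 and 1224 CPM against 360 and 1170, and Cd163 at 179 and 450 against 91.8 and 346, both high where Timd4 was frequent. Of the rule's own markers, Clec4f stood at 2486 and 3884 CPM against 1267 and 2727, Vsig4 at 1101 and 1435 against 1117 and 1231, Cd5l at 3846 and 3876 against 3072 and 2961, and Timd4 at 28.1 and 322 against 115 and 356.

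Most MHC class II genes tested were higher in the exercised libraries, and the sedentary libraries differed widely from each other. H2-Aa stood at 187 CPM in Sed 1 and 1045 in Sed 2, against 2532 in Ex 1 and 2198 in Ex 2. The log2 change was 1.92 ± 0.88 (SE, n = 2; adjusted p = 0.709, edgeR). Cd74, the invariant chain, stood at 815 and 3489 CPM against 6578 and 4406 (1.34 ± 0.77; adjusted p = 0.726). The transactivator Ciita stood at 4.89 and 46.1 CPM against 58.6 and 122. In Ex 2 the cell with most UMIs of each gene held 108 of 216 for H2-Aa, 168 of 433 for Cd74 and 8 of 12 for Ciita. In Ex 1 it held 87 of 993, 262 of 2580 and 3 of 23. The H2-Aa change was 3.56 without Sed 2 and 1.15 without Sed 1. Those fits have 1 sedentary library, which is assumed to vary like the exercised ones, so no p is given for them. Of 14 class II genes 9 passed the count filter, with a median of 1.34, which was 2.66 without Sed 2 and 0.62 without Sed 1. Both exercised libraries were above for 6 and below for 2, against 21.7% and 20.5% of all genes. The 2 below were Ctss and Lgmn, proteases that process antigen. At 3000 UMIs per cell H2-Aa had a UMI in 25%, 50.1%, 88.0% and 73.3% of cells, and T cells had one in 2.65%, 15.2%, 12.4% and 8.81%. The pattern was not confined to Kupffer cells. In C1q macrophages H2-Aa stood at 357 and 2427 CPM in Sed against 6110 and 6726 in Ex. In monocytes it stood at 60.2 and 235 against 1158 and 1026. In dendritic cells it was not higher in Ex, at 7804 and 7433 against 7007 and 6052.

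The MHC class II genes, which interferon gamma also induces, form the separate list described above. The list of interferon gamma-induced genes, which held Cxcl9 itself, did not follow Cxcl9 as a group. It had 19 tested genes and a median log2 change of 0.14. In both exercised libraries 6 of its genes were above, Cxcl9 included, and 4 below, against 21.7% and 20.5% of all genes. The guanylate-binding protein gene Gbp2, named after its values were seen, stood at 61.2 and 68.2 against 222 and 112. Cxcl10, a second CXCR3 ligand that type I interferon also induces, stood lower, at 327 and 234 against 201 and 163, and 1 cell held 46 of its 79 UMIs in Ex 1 and 1 held 10 of 16 in Ex 2. Among further chemokines Cxcl16 stood at 180 and 238 CPM against 326 and 315, and Ccl7, named after its values were seen, at 82.0 and 143 against 38.2 and 10.2.

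In the lists of glycolysis, cell cycle and complement genes no gene passed the threshold. Glycolysis genes had a median of 0.37, with 9 of 17 above in both exercised libraries and none below, against 21.7% and 20.5% of all genes. Cell cycle genes had a median of 0.87, with 16 of 17 above 0 but 0 above in both exercised libraries. This rested on Ex 1: without it 20 of 21 tested cell cycle genes were below 0, and without Sed 2 the median was 0.30. Complement genes had a median of -0.07. C1qa, a subunit of the first complement component, stood at 5591 and 6442 CPM against 4732 and 3765, and C3 at 60.0 and 72.0 against 120 and 275. For C3, 1 cell held 13 of 47 UMIs in Ex 1 and 1 held 16 of 27 in Ex 2. The efferocytosis receptor gene Mertk stood at 213 and 189 CPM against 115 and 122, and the lipid receptor gene Trem2 at 148 and 246 against 122 and 81.4. The cytokine genes Il1b, Tnf and Il10, and Arg1, Cd274 and Hmox1, overlapped between the groups. In C1q macrophages too, C1qa, Mertk and Trem2 were lower and C3 was higher in both exercised libraries.

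Genes of large peritoneal macrophages rested on few cells. Their list summed to 936 CPM in Sed 1, 474 in Sed 2, 5622 in Ex 1 and 427 in Ex 2. Prg4, which encodes a lubricating proteoglycan, stood at 25.7 and 8.61 CPM in Sed and at 186 and 10.2 in Ex. In Ex 1, 2 of the 50 cells held 36 of its 73 UMIs each, and these cells also held 63 and 43 UMIs of Alox15 and 173 and 219 of Fn1, and none of Clec4f or Vsig4. Prg4 had a log2 change of 3.08 with all libraries and of -0.64 without Ex 1. Slpi, a protease inhibitor, stood at 102 and 85.4 CPM against 734 and 40.7, and its change was -1.25 without Ex 1.

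**Figure D4:**
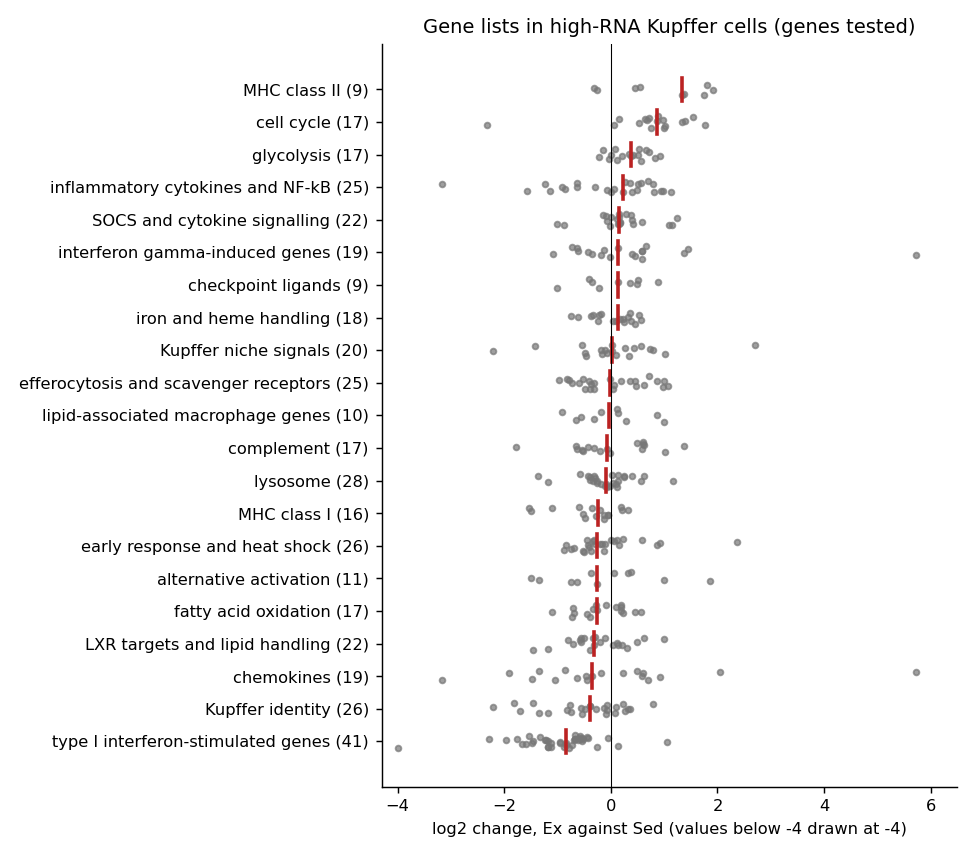
Log2 change from Sed to Ex (horizontal axis) of each tested gene in 21 gene lists in high-RNA Kupffer cells; points are genes, red lines list medians, and numbers in brackets the genes tested, with the selection genes left out and values below -4 drawn at -4. The interferon-stimulated list lies lowest with a median of -0.84 and MHC class II highest with 1.34, and Cxcl9 stands alone at 5.72 in the chemokine and interferon gamma lists.

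The changes were then compared with those in other myeloid cells of the same libraries, in a fit that kept each library as a block and tested the difference of the changes. Against C1q macrophages 32 of 8090 genes differed (0.396%), 14 of them higher and 18 lower (0.222%) in Kupffer cells, and DESeq2 called 6. Ly6a had the smallest adjusted p of the genes with no group at 0. In C1q macrophages it stood at 981 and 1384 CPM in Sed and at 1411 and 1521 in Ex, a difference of the log2 changes of -2.004 ± 0.27 (adjusted p = 8.77e-07, edgeR). Irf7 stood at 594 and 655 CPM in Sed and 565 and 475 in Ex in C1q macrophages, which gave a difference of -1.45 ± 0.29 (adjusted p = 0.00293). The Irf7 difference was -1.21 without Sed 1 (adjusted p = 0.0943, edgeR), -1.20 without Ex 1 (0.241) and -1.39 with DESeq2 (0.431). Zbp1, Ifi204 and Ifi27l2a, found after their values were seen, were called below 0 as well, at -1.42, -1.29 and -0.99, which makes 4 of 41 interferon-stimulated genes. Of the 41, 40 had a difference below 0, with a median of -1.03 against -0.07 over all genes. Zbp1, Ifi204 and Ifi27l2a lost their call in DESeq2 and without Sed 1. Leaving out 1 library at a time, their differences ran from -1.72 to -1.23, from -1.69 to -1.06 and from -1.16 to -0.84. Higher in Kupffer cells were the differences of Ltc4s, a leukotriene synthase (3.72), Anxa1, an anti-inflammatory annexin (2.26), and Pf4, a platelet chemokine (2.15). Pf4 stood at 433 and 299 against 324 and 204 CPM in the Kupffer cells, and at 1773 and 573 against 154 and 152 CPM in C1q macrophages. Anxa1 overlapped between the groups in the Kupffer cells, at 206 and 88.2 against 168 and 458 CPM. In C1q macrophages Anxa1 stood at 194 and 136 against 49.4 and 75.9 CPM. Without Ex 1 the Ltc4s difference was 1.92 (adjusted p = 0.576).

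Against monocytes 99 of 10475 genes differed (0.945%), 22 higher and 77 lower (0.735%) in Kupffer cells, and DESeq2 called 31. Without Ex 1, a fit with 1 exercised library left, 1 gene was called and none of the 99 remained, against 158 without Sed 1, 113 without Sed 2 and 32 without Ex 2. Ly6a stood at 236 and 146 CPM in sedentary and at 382 and 363 in exercised monocytes, a difference of -2.64 ± 0.26 (adjusted p = 3.54e-08, edgeR). Cxcl10 went from 99.95 and 60.8 CPM to 442 and 298 in monocytes, a difference of -2.97 ± 0.30. Tmem176b, Tmem37 and the class I-like gene H2-Q7 differed by -2.32, -2.97 and -2.55. Tmem176b overlapped between the groups in the Kupffer cells, at 348 and 448 against 487 and 346 CPM. In monocytes Tmem176b stood at 30.7 and 35.7 against 202 and 124 CPM. Isg15 stood at 452 and 322 CPM against 555 and 389 in monocytes (-2.24 ± 0.34; adjusted p = 0.00279). The class II invariant chain Cd74 stood at 185 and 610 CPM against 3179 and 2657 in monocytes (-1.53 ± 0.22; adjusted p = 7.59e-05), and so was higher in Ex in both cell types but by less in Kupffer cells. Il18 and Id1 differed by -2.16 and -1.64. Id1 was lower in exercised monocytes as well, at 90.8 and 101 against 62.1 and 60.7 CPM, while Il18 was higher in them. Of the 41 interferon-stimulated genes 40 had a difference below 0, with a median of -0.90 against -0.11 over all genes, and 4 were called. Without Ex 1 the difference was -2.59 for Ly6a (adjusted p = 0.0867, edgeR), -3.06 for Isg15 (0.119) and -1.68 for Cd74 (0.188). Without Ex 2 it was -1.37 for Cd74 (0.072).

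Against dendritic cells 1 of 7788 genes was called (0.0128%) by edgeR and 0 by DESeq2, with 459 at an unadjusted p under 0.05. It was Ifitm2, an antiviral membrane protein, at -1.55 ± 0.23 (adjusted p = 0.0154). In dendritic cells Irf7 stood at 538 and 352 CPM in Sed and at 206 and 75.2 in Ex, lower in Ex as in Kupffer cells, and the difference was 0.10 ± 0.46 (adjusted p = 1). The interferon-stimulated list had a median difference of -0.31, with 30 of 41 below 0. Cxcl9 was higher in Ex in all 3 classes: at 58.1 and 214 against 1244 and 1664 CPM in C1q macrophages, 2.08 and 1.19 against 137 and 319 in monocytes, and 43.5 and 12.3 against 235 and 215 in dendritic cells. Its change in Kupffer cells was not called different from theirs, with differences of 2.28 ± 1.59, -1.38 ± 0.78 and 2.39 ± 0.46 (adjusted p = 0.89, 0.687 and 0.0882, edgeR).

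**Figure D5:**
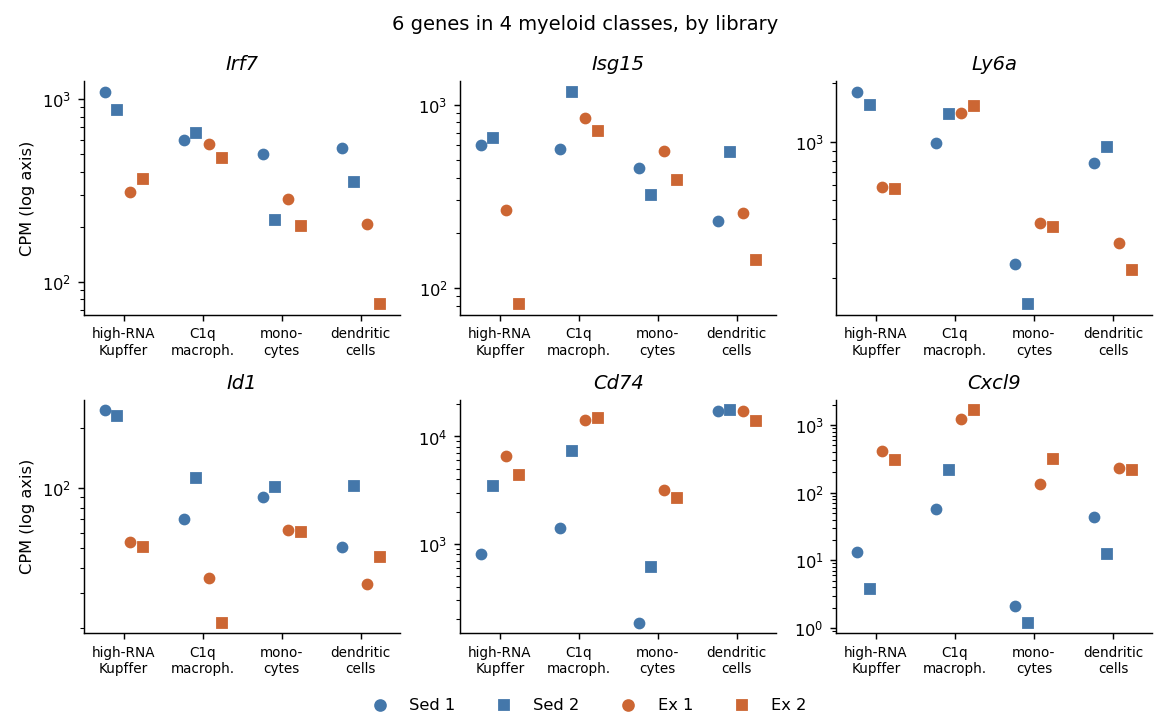
Levels of 6 genes (vertical axes, CPM on a log scale) in high-RNA Kupffer cells, C1q macrophages, monocytes and dendritic cells; each point is 1 library, circles for the first and squares for the second library of each group. Irf7 is lower in both exercised libraries of Kupffer cells, C1q macrophages and dendritic cells, Ly6a is lower in exercised Kupffer cells and higher in exercised C1q macrophages and monocytes, and Cxcl9 is higher in the exercised libraries of every class.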

How the data were processed

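UMI counts per gene and cell were deposited by the authors as an aggregated Cell Ranger matrix. Version 7.0.0, mm10 and GRCm38 are given in the submitters' processing notes, and 6.1.1 per the file headers. Whether depth was equalised is not given in the sources used here. Libraries were told apart by the barcode endings, taken in the aggregation table's order, and 22615 columns without a barcode were not used. Cells and lists were chosen with earlier results of these data known. UMIs were summed per library and class. The main test was edgeR 4.0.16 in R 4.3.3 (TMM, filterByExpr, robust quasi-likelihood), and genes were called at a Benjamini-Hochberg adjusted p under 0.05. DESeq2 1.42.0 was run beside it. Each SE is the absolute log2 change divided by the root of F. C1q macrophages had at least 10 UMIs of C1qa, C1qb and C1qc and none of Flt3. Monocytes had at least 4 of Ly6c2, Ccr2 and Chil3, none of Flt3 and fewer than 10 of C1q. Dendritic cells had at least 2 of Flt3, Xcr1, Clec9a and Cd209a, fewer than 10 of C1q and at most 1 of Ly6c2 and Chil3. T cells had at least 3 Cd3 UMIs and no Kupffer marker. Doublets were scored with the Scrublet of scanpy 1.11.5 and kept; 9, 21, 3 and 0 of the Kupffer cells were marked. Named genes were called genes of at least 10 CPM whose groups did not overlap (the 12 largest rises and falls and up to 4 per list), a panel of 41 genes (1 further panel gene is not reported here) and, in each comparison with another class, the 5 smallest p-values among called genes of at least 10 CPM. The code was tested on simulated data. Alternatives changed the UMI, marker and mitochondrial limits, removed doublets or cells with UMIs of other cell types, thinned cells or sums, and left out each library. Spp1 of the panel did not pass the count filter.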

Additional observations from a re-analysis of the deposited data

Results flagged for a closer look

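Genes whose change from Sed to Ex differed between high-RNA Kupffer cells and another class, by the test of the difference itself (edgeR, Benjamini-Hochberg adjustment), were as follows. Against C1q macrophages the difference of the log2 changes was -2.004 for Ly6a, 3.72 for Ltc4s, 2.26 for Anxa1 and 2.15 for Pf4. Against monocytes it was -2.64 for Ly6a, -2.97 for Cxcl10, -2.32 for Tmem176b, -2.97 for Tmem37 and -2.55 for H2-Q7. Against dendritic cells it was -1.55 for Ifitm2. Against C1q macrophages, Ly6a, Anxa1 and Pf4 kept their call in the alternatives that used every library. Leaving out 1 library at a time, their differences ran from -2.38 to -1.64, from 1.88 to 2.68 and from 1.62 to 2.70. Those fits have 1 library left in a group, so only their effect sizes are given here. Ltc4s lost its call in DESeq2. The hemoglobin gene Hba-a2 was also called against C1q macrophages, with 1077 UMIs in the Kupffer cells of Sed 2 and 0 in the other libraries, and 824 in the C1q macrophages of Ex 1 and 0 in the others, so no fold is given.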

How the results depend on the processing

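The direction of the share of high-RNA Kupffer cells, of the Cxcl9 change and of the median of the interferon-stimulated list was the same in every alternative run. The number of genes called was not stable. In the Kupffer cells it was 9 with DESeq2, 82 without the count filter, 0 with 2000 UMIs, 5 without cells holding UMIs of other cell types, 3 with thinned cells, 3 with thinned sums and 14 without the highest cell of each gene. Without 1 library it ran from 31 to 98, in fits where the lone library of a group is assumed to vary like the other group's. A replicate block gave 0 calls. The deviations of same-numbered libraries correlated at r = 0.021 across genes. The labels state no pairing, so the block pairs by number only. Whether same-numbered libraries shared a batch was not tested. For C1q macrophages, monocytes and dendritic cells the calls were 6, 31 and 0 with DESeq2 and 71, 195 and 37 without the filter. Thinned cells gave 4 for dendritic cells. Without the highest cell, C1q macrophages had 68 and dendritic cells 41. Without 1 library the ranges were 40 to 138, 1 to 158 and 17 to 74. The cause was not tested.

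Some log2 changes reversed, none of them called in the fit of all cells. Leaving out 1 library at a time, they ran from -1.25 (without Ex 1) to 2.90 for Slpi, -0.64 (without Ex 1) to 3.76 for Prg4, -1.48 to 0.24 for Marco, -1.86 to 0.073 for Cd163, -2.93 to 0.27 for Tnf, -3.04 to 1.12 for Il10, -0.38 to 0.68 for Fcna, -0.0053 to 0.67 for Slc40a1, -0.011 to 1.12 for Hmox1, -0.29 to 0.87 for Spic, -0.13 to 0.34 for Cd274 and -0.21 to 0.99 for Arg1. With at most 5% mitochondrial UMIs, Fcna was -0.51, Slc40a1 -0.38, Spic -0.48, Arg1 -0.31 and Adgre1 -0.050. With 5000 UMIs, Fcna was -0.044, Hmox1 -0.019 and Spic -0.22. With Clec4f required, Stab1 was -0.26 and Spic -0.0078. With thinned cells, Marco was 0.016, Il10 0.32 and Spic -0.21. Without the highest cell, Spic was -0.13, Cd274 -0.13 and Arg1 -0.35. Fcna was -0.079 without the filter, Cd274 -0.24 with 8 marker UMIs and Il10 0.080 with 2000 UMIs. Without cells holding UMIs of other cell types, Il10 was 0.010 and Cd274 -0.29. Differences in the share of cells with a UMI, taken without thinning, reversed for Adgre1 (-0.27 points), Hmox1 (-0.15), Spic (-4.24) and Tnf (-5.14). With 15 cells in Ex 2, 1 cell can set a value.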
